A study of Homo sapiens with 4 samples.

Results

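The genes described here are 10 members of the Notch signaling pathway: the receptors NOTCH1, NOTCH2 and NOTCH3, the ligands JAG1, JAG2, DLL1 and DLL4, and the target genes HES1, HEY1 and HES4. They were chosen by symbol from the pathway as it is generally known, but with earlier results of these data known. Shares of members called are therefore set beside those of all genes only as a description. All 10 were found among the 24424 gene symbols counted. The RNA came from BEAS-2B, an established line of immortalized human bronchial epithelium with a wild-type genotype, and was sequenced in 4 libraries with 1 library per condition. The Control cells received no treatment, the LPS cells received lipopolysaccharide, the endotoxin of gram-negative bacteria, for 2 hr, and the WT PDZ+LPS and mut PDZ+LPS cells received a peptide for 24 hr before the same 2 hr of LPS. The wild-type (WT) peptide carries part of the first PDZ domain of the tight junction protein ZO-1 behind a TAT sequence for entry into cells, and in the mutant (mut) peptide a pair of glycines was replaced by alanines. No library of cells given a peptide without LPS was analysed, so the peptides can be compared only in the presence of LPS. The libraries summed to between 19682929 and 25155647 counts, with the lowest total in mut PDZ+LPS. With a single library per condition there was no replicate to check a difference against, and p-values are not given. The 95% intervals cover counting error only and compare 2 libraries, not 2 conditions.

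Notch signaling passes between cells that touch. A ligand of the Jagged or Delta-like family on one cell binds a Notch receptor on its neighbour, the receptor is cut by an ADAM protease and then by the γ-secretase complex, and the released intracellular part enters the nucleus. There it joins the DNA-binding protein RBPJ and a Mastermind coactivator and switches on genes of the HES and HEY families, which encode repressors of transcription. In airway epithelium the pathway is known for deciding between secretory and ciliated cell fates, and in its basal cells for governing differentiation. Several of these genes are also known to respond to inflammatory signals, and receptor activity itself is set by protein cleavage, which RNA counts do not measure.

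The 250 bases before the transcription start, from RefSeq on GRCh38.p14, were available for 8 of the 10 genes and are shown for 5 of them. HES1 and HES4 are the targets with the highest counts, NOTCH2 is the receptor with the highest counts, and JAG1 and DLL4 are ligands whose counts were higher with LPS. Each is written 5′ to 3′ on the strand of its gene and ends at the base before the start. Capitals in HES1 and HES4 mark TGGGAA, the core of the site bound by RBPJ. Capitals in NOTCH2 mark a match to the kappa-B consensus, the site of the NF-kB family. The HES1 bases lie at chr3:194135898-194136147 on the plus strand, those of HES4 at chr1:1000098-1000347 on the minus strand, and those of NOTCH2 at chr1:120069663-120069912 on the minus strand. The JAG1 bases lie at chr20:10674000-10674249 on the minus strand and those of DLL4 at chr15:40929090-40929339 on the plus strand.
HES1: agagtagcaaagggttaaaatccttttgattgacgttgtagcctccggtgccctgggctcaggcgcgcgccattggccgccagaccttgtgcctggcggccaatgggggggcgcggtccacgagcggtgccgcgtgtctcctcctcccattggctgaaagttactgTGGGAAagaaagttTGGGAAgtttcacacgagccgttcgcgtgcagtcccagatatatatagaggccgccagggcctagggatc
HES4: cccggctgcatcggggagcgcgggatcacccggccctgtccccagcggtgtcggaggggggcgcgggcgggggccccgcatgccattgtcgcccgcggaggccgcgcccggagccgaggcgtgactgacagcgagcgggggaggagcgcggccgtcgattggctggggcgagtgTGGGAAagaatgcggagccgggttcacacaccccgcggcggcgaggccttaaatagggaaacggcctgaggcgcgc
NOTCH2: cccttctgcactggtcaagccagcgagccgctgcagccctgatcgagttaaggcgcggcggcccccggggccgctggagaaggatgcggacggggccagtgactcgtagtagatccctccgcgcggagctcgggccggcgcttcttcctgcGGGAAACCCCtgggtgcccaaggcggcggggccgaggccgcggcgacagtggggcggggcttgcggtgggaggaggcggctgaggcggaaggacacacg
JAG1: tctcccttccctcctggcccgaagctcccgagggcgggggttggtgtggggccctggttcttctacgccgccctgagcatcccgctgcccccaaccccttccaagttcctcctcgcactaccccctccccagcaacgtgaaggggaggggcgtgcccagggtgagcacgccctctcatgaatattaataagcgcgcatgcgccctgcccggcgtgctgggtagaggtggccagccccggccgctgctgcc
DLL4: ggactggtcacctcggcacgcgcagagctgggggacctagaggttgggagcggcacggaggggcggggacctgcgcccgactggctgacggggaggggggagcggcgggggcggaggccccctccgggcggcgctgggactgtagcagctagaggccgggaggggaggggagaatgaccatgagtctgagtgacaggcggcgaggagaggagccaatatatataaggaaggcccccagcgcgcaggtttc

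TGGGAA, searched on both strands, was found in 2 of the 8 promoters, those of HES1 and HES4. HES1 held it 84 to 79 and again 70 to 65 bases before the start, and HES4 held it once, 76 to 71 bases before. Around the first of these the promoters of the 2 targets shared a run of 12 bases, tgTGGGAAagaa, which began 86 bases before the start of HES1 and 78 bases before the start of HES4. Of 27305 promoters of the same length, 21.1% held TGGGAA at least once and 2.92% at least 2 times. The kappa-B consensus was found in 1 of the 8, NOTCH2, on both strands 99 to 90 bases before the start, and in 5.05% of all promoters. The E-box CACGTG, a site bound by HES and HEY proteins and by other factors of their class, was in none of the 8 and in 6.49% of all promoters. A match describes the letters in this window and was not tested as a binding site.

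The marker genes showed epithelial genes beside mesenchymal ones. All 7 epithelial markers, keratins and cadherin 1 (CDH1) among them, were counted in every library. Their summed level lay between 29413 and 42728 normalized counts, highest in mut PDZ+LPS, where KRT8 had 21612 and KRT18 18874. KRT5 was highest there too, whereas CDH1 was lowest there at 362, and EPCAM, KRT19 and TP63 were highest in other libraries. Of 5 immune markers, PTPRC was at 0 in all libraries and CD14 was the only one above 12 reads, with 366 to 523 normalized counts, and the 4 endothelial markers summed to between 6 and 16 counts. Of the 4 markers of differentiated airway cells, FOXJ1 and SCGB1A1 were at 0 throughout, while MUC5AC had 9 to 22 reads and MUC5B 11 to 21, both highest in LPS. The 5 fibroblast or mesenchymal markers summed to between 21297 and 25542 normalized counts, with VIM at 20794 to 24975 and COL1A1 at 288 to 422, whereas the epithelial marker EPCAM had 34.8 to 49.5. PDGFRB and CDH2 were lowest in mut PDZ+LPS, at 78.7 and 68.1, and DCN had 1 to 6 reads. The 3 genes checked for the response to LPS summed to 3278 normalized counts in Control and to between 55250.3 and 71949.7 in the libraries with LPS. In bulk RNA, fewer cells of a type and less RNA per cell cannot be told apart. One library, mut PDZ+LPS, stood apart in how its counts related to the length and GC content of transcripts. Across 12118 genes, which are not independent replicates, transcript length and log2 fold change had a Spearman's rho of -0.605 in mut PDZ+LPS/LPS but 0.075 in WT PDZ+LPS/LPS. For GC content the rho was 0.413 and -0.0872 in the same order. The values of the 10 genes against this library are therefore also given after a length and GC correction, which subtracted a fitted trend over both. After it the rho with length was 0.00492 in mut PDZ+LPS/LPS, and the rho with GC content was not computed.

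The receptors were led by NOTCH2 in every library. NOTCH2 had 5140.1 normalized counts in Control, 7159 in LPS, 7302 with the WT peptide and LPS, and 3518 with the mutant peptide and LPS. The libraries with LPS alone and with the WT peptide were the high ones. The mut PDZ+LPS library lay below Control, with a log2 fold change of -0.55 (-0.61 to -0.48) that was -0.11 after the length and GC correction. NOTCH1 had 1027, 958, 993 and 924 normalized counts in the same order. Its highest and lowest libraries differed by 1.11-fold, the narrowest range of the 10 genes. NOTCH3, a receptor best known from vascular smooth muscle and from basal airway cells, had 63.5, 78.1, 83.8 and 43.5 normalized counts, again lowest in mut PDZ+LPS. Neither NOTCH2 nor NOTCH3 differed between LPS and WT PDZ+LPS beyond counting error.

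The ligands were led by JAG1, and 3 of the 4 were lowest in Control. JAG1 had 1117 normalized counts in Control, 2332 in LPS, 2276 with the WT peptide and 2017 with the mutant peptide. All 3 libraries with LPS thus stood above the untreated cells, and those without mutant peptide were next to each other. JAG2, the second Jagged ligand, had 197, 181, 211 and 253 normalized counts, with mut PDZ+LPS as its highest library. DLL1, a Delta-like ligand, had 43.5 normalized counts in Control and 88.4 in LPS, then 66.6 with the WT and 108 with the mutant peptide. DLL4, a Delta-like ligand best known from sprouting blood vessels, had 4.35, 29.2, 21.2 and 25.8 normalized counts, from 5, 31, 21 and 22 reads. Its Control library was the low one, and its counts were small in all 4. DLL1 lies opposite FAM120B, whose gene body it overlaps on the other strand, and no source used here says whether the counting used the strand, so reads could be shared between them. FAM120B had 1127 counts in Control, 983 in LPS, 937 with the WT and 551 with the mutant peptide. In the same unit DLL1 had 50, 94, 66 and 92 counts, and whether reads were shared was not tested.

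The targets were highest in mut PDZ+LPS, apart from HEY1. HES1 had 177 normalized counts in Control, 156 in LPS, 182 with the WT peptide and 288 with the mutant peptide. HES4, a HES family member with a short GC-rich transcript, had 127, 166, 168 and 316 normalized counts. For both genes the mut PDZ+LPS library stood alone, and the counting intervals of its level did not reach those of the other 3. These levels are not corrected for the length trend of that library. After the length and GC correction, HES4 differed from LPS there by 0.04 on the log2 scale and HES1 by 0.70. HEY1, which encodes a repressor of the HEY family, had 14.8, 6.58, 8.08 and 11.7 normalized counts, from 17, 7, 8 and 10 reads. HEY1 stayed below 16 normalized counts in every library, so it could not be called changed and its values carry wide intervals.

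**Figure D1:**
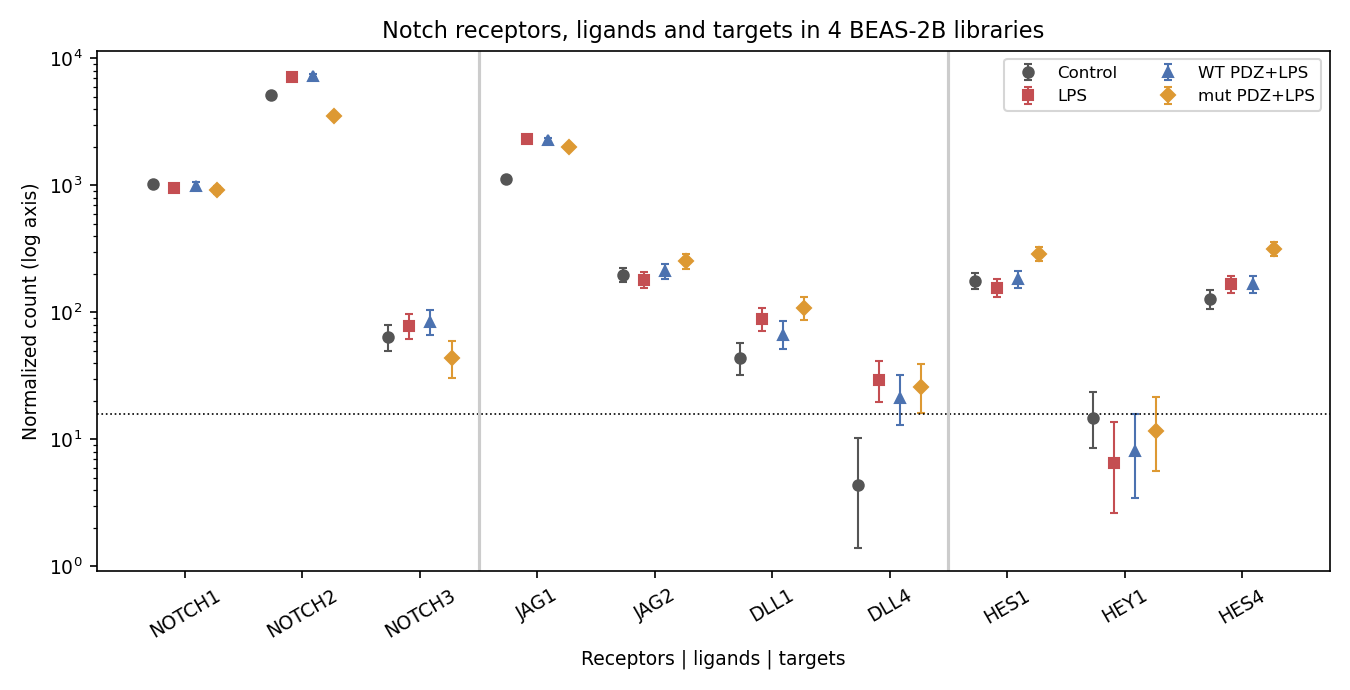
Normalized counts (log axis) of the 3 receptors, 4 ligands and 3 targets in the 4 libraries, with 1 point per library and bars for the exact Poisson 95% interval of the count. The dotted line marks 16 normalized counts. JAG1, DLL1 and DLL4 were lowest in Control, NOTCH2 was lowest in mut PDZ+LPS at 3518, and HES1 and HES4 were highest there at 288 and 316. Levels are drawn without the length and GC correction.

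Levels can be set against each other between genes only per length, here as normalized counts per kilobase of the longest coding transcript. The means over the 4 libraries ran in the order NOTCH2 (507), JAG1 (326), HES4 (187), HES1 (127), NOTCH1 (105), JAG2 (36), DLL1 (24.2), NOTCH3 (7.76), DLL4 (5.87) and HEY1 (4.49). NOTCH2 lay above 73% of the 12118 genes with a length, whereas NOTCH3, DLL4 and HEY1 lay above 3.37%, 2.14% and 1.35%. HES4 was thus ahead of HES1 per kilobase although the 2 genes had almost the same mean count, since the HES4 transcript has 1040 bases and that of HES1 1578.

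The makeup of each class differed between libraries. Per kilobase, NOTCH2 made up 79.3% of the receptor sum in Control, 84.9% in LPS, 84.6% with the WT peptide and 74.8% with the mutant peptide, and NOTCH1 made up 19.4%, 13.9%, 14.1% and 24% in the same order. A larger share of NOTCH1 in mut PDZ+LPS therefore went with fewer NOTCH2 counts and not with more NOTCH1 counts. JAG1 made up 79.4% of the ligand sum in Control and 85.4% in LPS, and JAG2 14.2% and 6.73%. The share of DLL4 was 0.536% in Control and 1.85% in LPS. Summed per kilobase, the receptors came to 569, 740, 757 and 413, the ligands to 237, 460, 447 and 425, and the targets to 241, 261, 280 and 491, again in that order. The ligand and target sums were both lowest in Control, and between Control and LPS the ligand sum was the further apart. Not divided by length, the targets summed to 319 normalized counts in Control and 328 in LPS. Of the targets, HES4 was higher in LPS than in Control, and HES1 and HEY1 were lower. In mut PDZ+LPS the receptor sum was the lowest and the target sum the highest. These sums are not corrected for the length trend of that library, and HES4, 61.8% of its target sum, went from a log2 fold change of 0.93 against LPS to 0.04 with the correction.

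**Figure D2:**
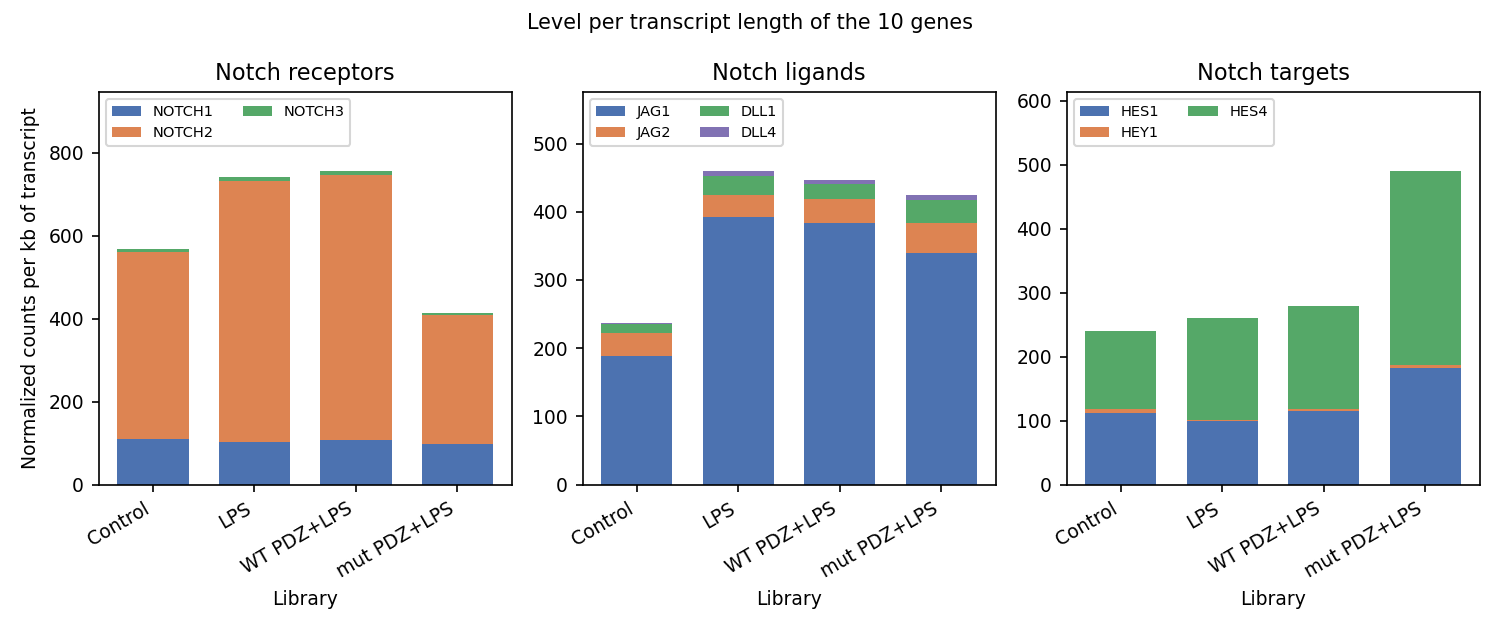
Normalized counts per kilobase of transcript, stacked by gene, for the receptors, ligands and targets in each of the 4 libraries. NOTCH2 and JAG1 made up at least 74.8% and 79.4% of their class in every library, and the ligand sum was lowest in Control at 237.

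LPS/Control addressed what LPS did to the cells without peptide. The ligands JAG1, DLL1 and DLL4 were called higher in LPS, the ligand JAG2 was not, and none of the receptors or targets was called in either direction. HEY1, too low to be called, had a difference as large as that of JAG1 and in the other direction. Calls needed a 2-fold difference on normalized counts plus 1, and 16 normalized counts or more in one or both of the libraries compared. JAG1 was higher by 1.06 on the log2 scale (95% counting interval 0.96 to 1.16). DLL1 was higher by 1.01 (0.51 to 1.55). The log2 fold change of DLL4 was 2.49 (1.37 to 4.46), a fold of 6.7, and the gene passed the expression rule only through LPS. The share called higher over all 13277 genes that passed the rule was 3.46%, and the share called lower, where no member was called, was 1.41%. The 3 calls are given as a description, since DLL4 could pass the rule only by being higher in LPS. JAG1 and DLL1 lay close to the threshold, and of the 3 calls upper-quartile scaling left 2 and total-count scaling 1.

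Among the receptors, NOTCH2 differed by 0.48 (0.43 to 0.53), a difference past counting error but under 2-fold. NOTCH1 differed by -0.10 (-0.22 to 0.02) and NOTCH3 by 0.29 (-0.17 to 0.77), both with intervals that include 0. JAG2 was the ligand that did not share the direction of the rest, at -0.12 (-0.41 to 0.16). The targets did not move as a class. HES4 differed by 0.38 (0.06 to 0.71) and HES1 by -0.18 (-0.48 to 0.12). HEY1 had a log2 fold change of -1.06 on 7 against 17 reads, with an interval from -2.68 to 0.18. Over the 9 members that averaged 16 or more normalized counts the median was 0.38, beside -0.00 over all 13072 such genes. DLL4 reached that mean only through the libraries with LPS, and HEY1, lower in LPS, was left out by it. The median is therefore given as a description. The length and GC correction left the 3 ligands called, with JAG1 at 1.04, DLL1 at 1.01 and DLL4 at 2.49, beside 3.38% of all genes called higher in this way.

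The libraries with peptide and LPS share the Control library with this comparison, so their values against Control are set beside it and are not independent of it. In WT PDZ+LPS/Control, 2 of 9 members were called higher, JAG1 at 1.03 (0.93 to 1.13) and DLL4 at 2.05 (0.84 to 4.05), beside 3.28% of 13284 genes, and none was called lower, beside 1.42%. JAG1 was not called there under total-count or upper-quartile scaling or after the length and GC correction. DLL1 differed by 0.60 (0.06 to 1.17) and was not called. In mut PDZ+LPS/Control, 3 of 9 members were called higher, DLL4 at 2.33 (1.13 to 4.33), DLL1 at 1.29 (0.80 to 1.84) and HES4 at 1.31 (1.02 to 1.62), beside 5.13% of 13434 genes, and none was called lower, beside 2.96%. The DLL4 calls against Control all rest on the same 5 Control reads and on the libraries with LPS for passing the expression rule, and none of them holds under an expression rule of 6 on the log2 scale. JAG1 differed by 0.85 in mut PDZ+LPS/Control, and by 1.13 after the length and GC correction. HES4 differed by 0.42 after it, short of a call.

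WT PDZ+LPS/LPS compared cells with and without the wild-type peptide, both given LPS. Without a library of peptide alone, it cannot separate a changed response to LPS from a change already present before LPS. None of the 9 members that passed the expression rule was called in either direction, beside 0.635% of 13236 genes called higher and 0.733% called lower. The counting intervals of all 10 genes included 0. JAG1 differed by -0.03 (-0.12 to 0.05) and NOTCH2 by 0.03 (-0.02 to 0.08), with the narrowest intervals of the 10. For DLL4 at -0.44 (-1.33 to 0.39) and DLL1 at -0.40 (-0.88 to 0.06) a lower level with the WT peptide was not detectable at this depth. HES1 differed by 0.22 (-0.09 to 0.53), JAG2 by 0.22 (-0.06 to 0.51) and HES4 by 0.02 (-0.30 to 0.33). The median over 9 members was 0.03, beside 0.01 over all genes.

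mut PDZ+LPS/LPS made the same comparison, with the same limit, for the peptide with the changed glycines. The receptors NOTCH2 and NOTCH3 were lower in mut PDZ+LPS and the targets HES1 and HES4 higher, while JAG1, DLL1 and DLL4 lay within 0.29 of LPS on the log2 scale. NOTCH2 was the 1 member called, lower at -1.02 (-1.09 to -0.96), beside 1.9% of 13378 genes called lower and 2.05% called higher. NOTCH3 differed by -0.83 (-1.44 to -0.27). HES4 differed by 0.93 (0.65 to 1.22) and HES1 by 0.88 (0.59 to 1.18), short of 2-fold. JAG2 was the ligand with the largest difference, 0.48 (0.20 to 0.77), and JAG1 differed by -0.21 (-0.30 to -0.12). Of the 10 counting intervals, 3 lay above 0, 3 below and 4 included it.

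Transcript length moved with some of these differences and not with others. NOTCH2 with 11389 bases and NOTCH3 with 8666 were lower in mut PDZ+LPS, and HES4 with 1040 bases and HES1 with 1578 were higher. Over all genes with a length, the median difference from LPS was 0.40 in the decile of shortest transcripts and -0.47 in that of the longest. After the length and GC correction, HES4 stood at 0.04, NOTCH2 at -0.51, NOTCH3 at -0.66 and HES1 at 0.70, and no member was called, beside 2.15% of all genes. NOTCH2, NOTCH3 and HES1 thus kept their direction while the difference of HES4 was no longer seen. JAG1 went from -0.21 to 0.10 and NOTCH1, with 9306 bases, from -0.05 to 0.14, so both changed direction. JAG2, with 5835 bases, was higher although its transcript is about as long as that of JAG1 with 5940, and stood at 0.47 after the correction. GC content also went with the difference from LPS over all genes with a length, at a Spearman's rho of 0.413. The transcript of JAG2 has 64% GC and that of JAG1 49.6%, and that of HES4 has 73.9% and that of HES1 49.9%. What the length and GC trends of this library came from was not tested.

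**Figure D3:**
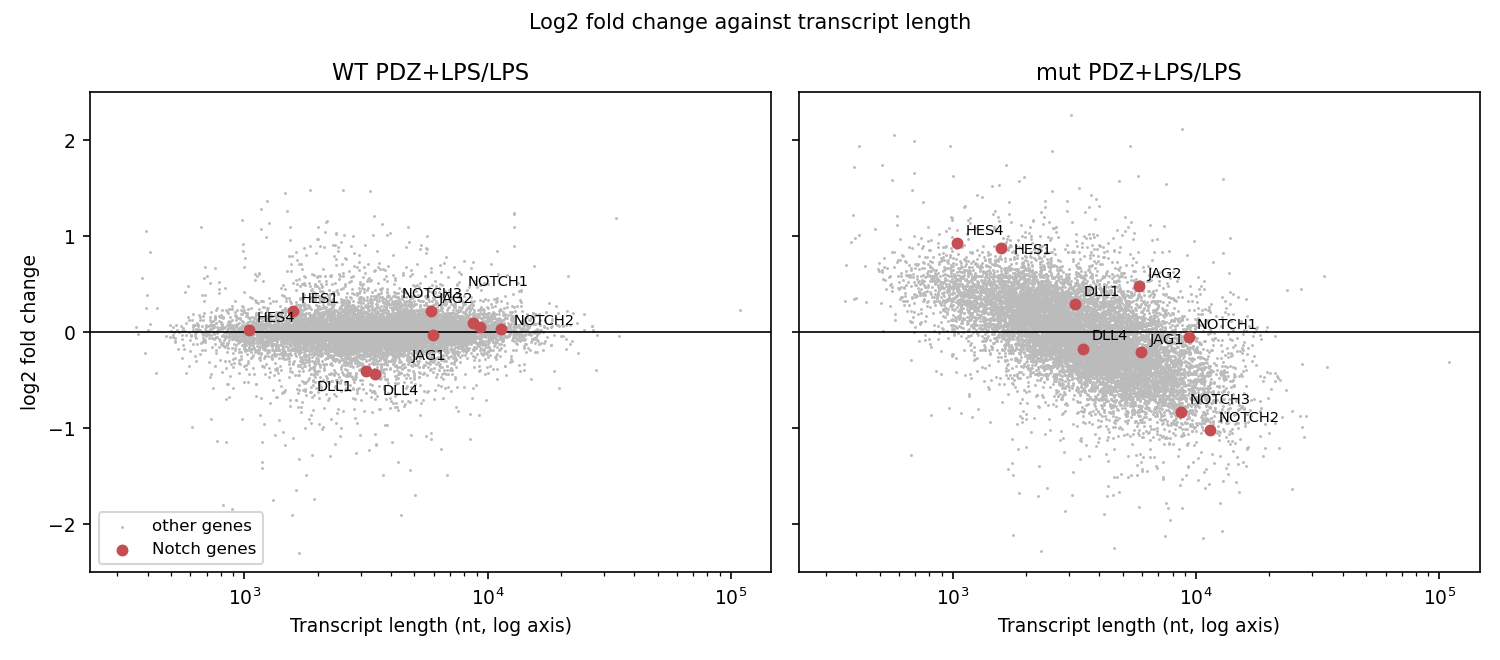
Log2 fold change against transcript length (nt, log axis) for 12118 genes that averaged 16 or more normalized counts, with the WT peptide (left) and the mutant peptide (right) against LPS, with 9 of the 10 Notch genes in red. HEY1 has too low a mean to be drawn, and 2 and 9 other genes lie beyond 2.5 on the log2 axis. The cloud is level on the left and slopes down on the right, with HES4 and HES1 at its upper left and NOTCH2 and NOTCH3 at its lower right.

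mut PDZ+LPS/WT PDZ+LPS compared the 2 peptides, which differ by the replaced pair of glycines, at the same times of peptide and LPS. NOTCH2 was again the 1 member called, lower with the mutant peptide at -1.05 (-1.12 to -0.99), beside 2.14% of 13372 genes called lower and 2.12% called higher. NOTCH3 differed by -0.93 (-1.55 to -0.37), HES4 by 0.91 (0.63 to 1.20) and HES1 by 0.66 (0.38 to 0.95). DLL1 differed by 0.69 (0.23 to 1.18) and was the ligand furthest apart between the peptides. JAG1 differed by -0.17 (-0.27 to -0.08), JAG2 by 0.26 and NOTCH1 by -0.10. After the length and GC correction NOTCH2 stood at -0.50, NOTCH3 at -0.74, HES4 at 0.02, HES1 at 0.47 and DLL1 at 0.61. JAG1 at 0.14 and NOTCH1 at 0.12 then had the other sign. Length and log2 fold change had a Spearman's rho of -0.614 in this comparison, which shares its library with mut PDZ+LPS/LPS.

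**Figure D4:**
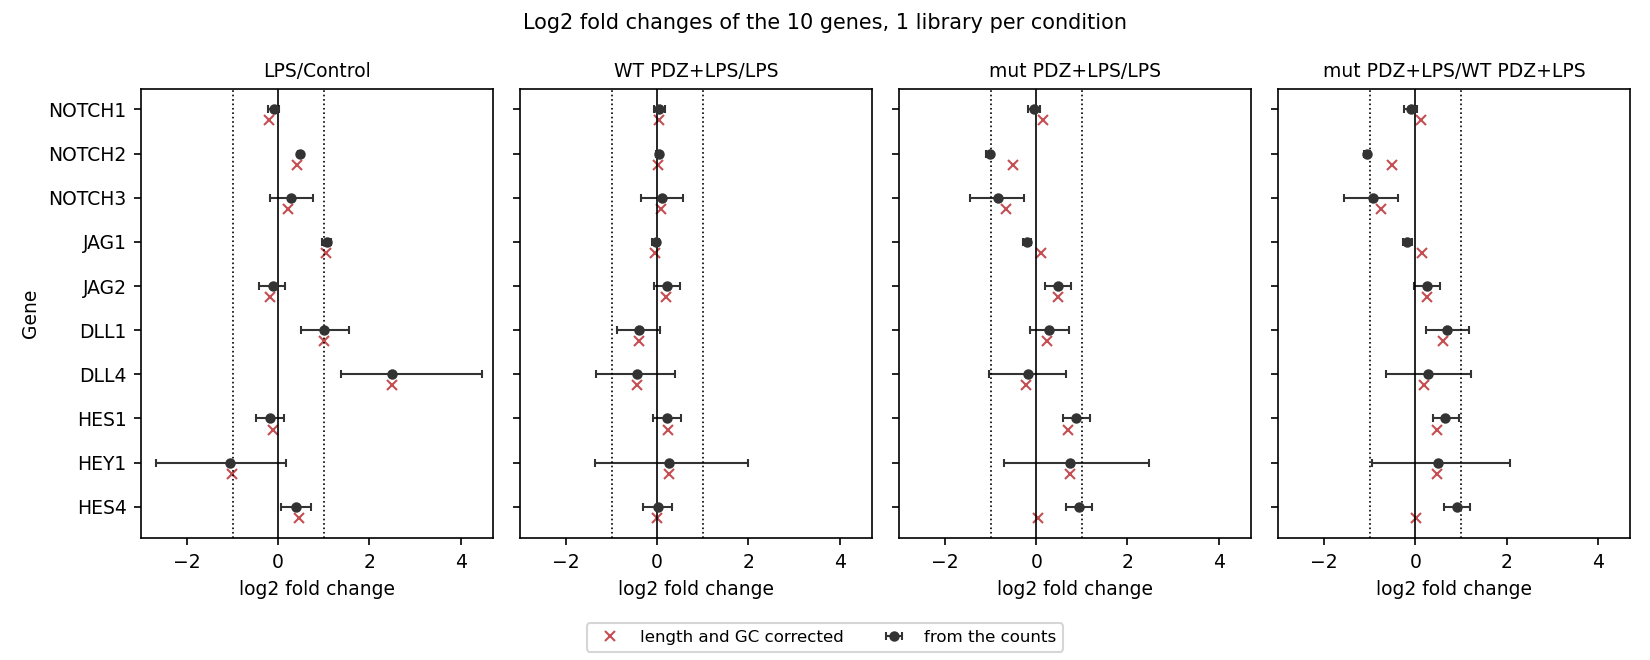
Log2 fold changes of the 10 genes in 4 comparisons, as black points with 95% counting intervals, and after the length and GC correction as red crosses. Dotted lines mark 2-fold. JAG1, DLL1 and DLL4 lie at or past the upper line in LPS/Control, every interval in WT PDZ+LPS/LPS includes 0, and NOTCH2 lies at the lower line in both comparisons with mut PDZ+LPS.

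The counts of NOTCH2 are uncertain in one respect. NOTCH2NL is a partial copy of NOTCH2 with nearly the same sequence as its first exons, so reads there cannot be divided with certainty. NOTCH2NL had 1139 counts in Control, 1377 in LPS, 1405 with the WT peptide and 970 with the mutant peptide. Its share of the counts of both genes was 16.2% (Clopper-Pearson interval 15.3 to 17) in Control, 15.3% (14.6 to 16.1) in LPS and 16.3% (15.5 to 17.1) in WT PDZ+LPS. In mut PDZ+LPS it was 24.5% (23.1 to 25.8), above the other 3 libraries. The 2 genes summed to 6131, 8454, 8720.5 and 4658 normalized counts, so the sum too was lowest in mut PDZ+LPS. On the log2 scale the sum differed by -0.86 against LPS and -0.90 against WT PDZ+LPS, so on the sum NOTCH2 would not be called in either comparison. Neither the shares nor the sums are corrected for the length and GC trends of mut PDZ+LPS, and no transcript length was available for NOTCH2NL. Whether the larger share in that library went with transcript length was not tested.

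A further 69 genes of the pathway were taken from 8 lists, and 58 of them averaged 16 or more normalized counts. In LPS/Control 4 of the 58, or 6.9%, were called higher and none lower, beside 3.46% and 1.41% of all genes, and their median was 0.09. The 4 were BCL6, DTX2, LFNG and SOX9. BCL6, a repressor known to hold down Notch targets, had 402 normalized counts in Control, 1461 in LPS, 1296 with the WT and 1547 with the mutant peptide, and a log2 fold change of 1.86 (1.71 to 2.01). DTX2, a ubiquitin ligase of the Deltex family that binds Notch receptors, had 358, 1017, 884 and 1142 normalized counts, a fold of 2.84 (on the log2 scale 1.34 to 1.67). LFNG, the Fringe enzyme that adds a sugar to the receptor and so alters its choice of ligand, had 3.48, 32, 37.4 and 41.1 normalized counts. It had 4 reads in Control and passed the expression rule through the libraries with LPS, at 2.88 (1.71 to 5.16). SOX9, a transcription factor that Notch activates in several tissues, had 32.2, 65.8, 63.6 and 71.7 normalized counts and a log2 fold change of 1.01 (0.44 to 1.65). All 4 stood above Control in each of the 3 libraries with LPS. Their number is given as a description, since the lists were chosen with earlier results of these data known. LFNG could pass the rule only by being higher with LPS, and SOX9 lay close to the threshold.

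The genes of receptor processing, coactivation and corepression were counted in every library, and none was called in LPS/Control. Over the 9 genes of receptor and ligand processing the median was 0.09, with ADAM10, the protease of the first cut, at 0.09 (0.03 to 0.15) and APH1A, a γ-secretase subunit, also at 0.09. Over the 9 genes of the nuclear complex it was 0.09 as well, with the acetyltransferases EP300 at 0.15 and CREBBP at 0.09. Over the 13 corepressors it was 0.07, with NCOR1 at 0.07 and SPEN, a corepressor that binds RBPJ, at 0.38 (0.33 to 0.43). Of the 5 inhibitors, NUMB, which directs receptor endocytosis, differed by 0.27 and the kinase AAK1 by -0.05, beside BCL6. These lists thus lay near the median of all genes, with single members apart from it. The other genes with high counts gave small differences in LPS/Control. POFUT1 and RFNG, which glycosylate the receptors, stood at 0.11 and -0.06, the ubiquitin ligases ITCH and MIB1 at 0.12 and 0.04, and DLK2, a ligand-like protein, at -0.14. CDKN1A and CCND1, cell cycle genes that are Notch targets in some cells, were both higher in LPS. CDKN1A differed by 0.87 (0.79 to 0.95). CCND1, with 1344 and 2686 normalized counts, stayed just short of 2-fold once 1 was added to each.

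In WT PDZ+LPS/LPS none of the 58 genes was called, beside 0.635% of all genes higher and 0.733% lower, and their median was 0.01. In mut PDZ+LPS/LPS none was called either, beside 2.05% higher and 1.9% lower, and their median was -0.16, or -0.04 after the length and GC correction. The lists with the lowest medians there were the nuclear complex at -0.38 and the ligand endocytosis genes and ubiquitin ligases, also at -0.38, which stood at -0.17 and -0.20 after the correction. In mut PDZ+LPS/WT PDZ+LPS 1 of the 58, or 1.72%, was called lower, no more than the 2.14% of all genes. It was MIB1, the ubiquitin ligase that drives endocytosis of Notch ligands. MIB1 had 2778 normalized counts in Control, 2854 in LPS, 2967 with the WT peptide and 1469 with the mutant peptide, and a log2 fold change of -1.01 (-1.11 to -0.92) between the peptides. Its log2 fold change was -0.49 after the correction, and the median of the 58 genes went from -0.18 to -0.05.

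**Figure D5:**
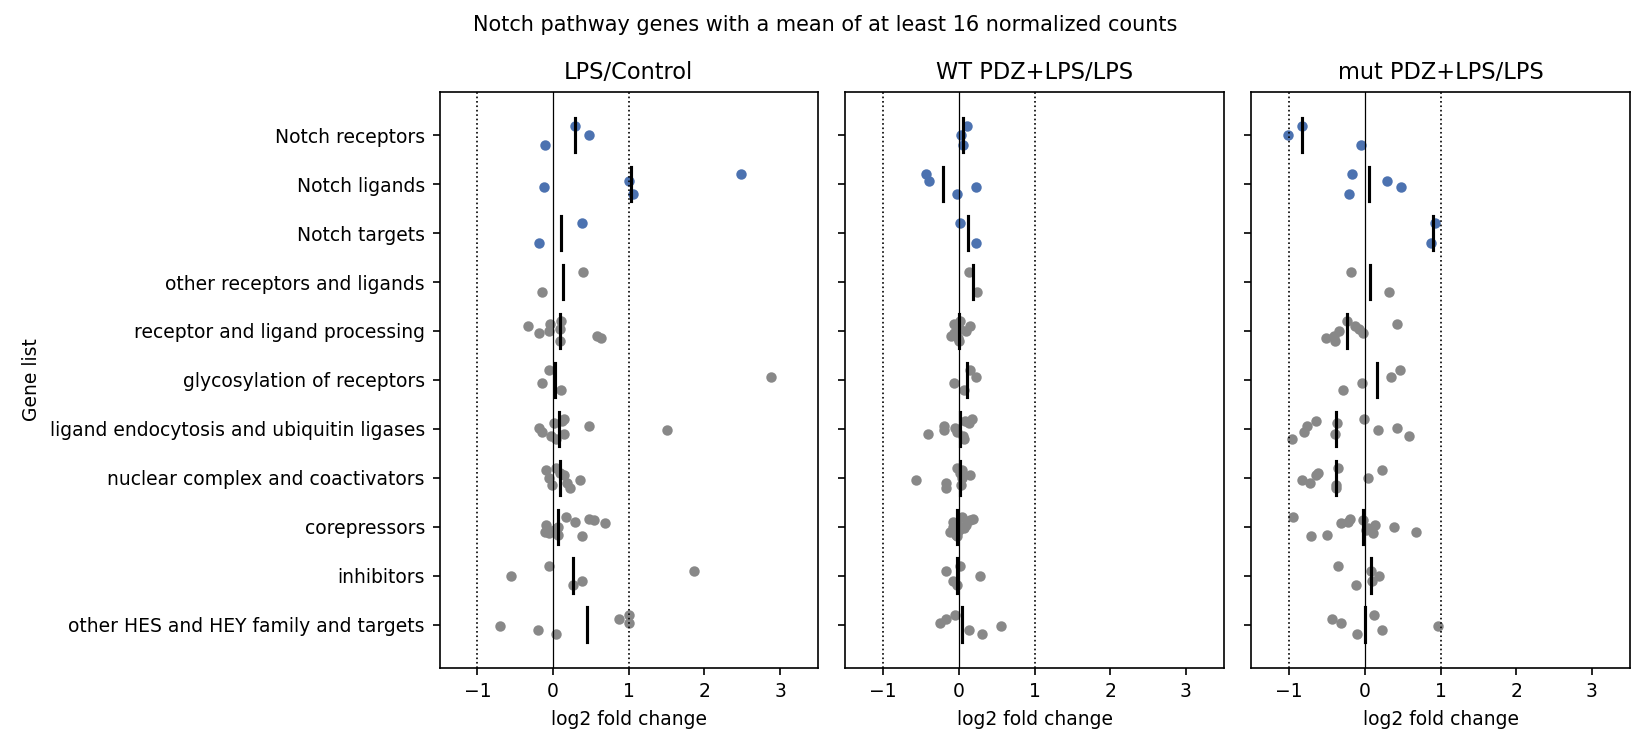
Log2 fold changes of single genes by list, for LPS against Control and for each peptide with LPS against LPS. Genes that averaged 16 or more normalized counts are drawn, with 9 of the 10 Notch genes (HEY1 is too low) in blue, other pathway genes in grey and a black bar at each list's median. In LPS/Control the ligands have the highest list median at 1.03, and in mut PDZ+LPS/LPS the receptors lie lowest at -0.83 and the targets highest at 0.90. Values are drawn without the length and GC correction, after which those medians in mut PDZ+LPS/LPS were -0.51 and 0.37. The targets drawn are HES1 and HES4 only.

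For the 5 members called in any of the 6 comparisons, the genes with the most similar course over the 4 libraries were sought among 11430 genes that averaged 64 or more normalized counts. The measure was the root mean square difference of the log2 values, each centred on its mean over the 4 libraries. Nearest to NOTCH2 were IGF2R (0.026), ZBTB20 (0.031) and DENND4A (0.032). Nearest to JAG1 were LURAP1L (0.028), KLF10 (0.032) and B3GNT5 (0.038), and KLF10 had 1315, 2684, 2681 and 2469.8 normalized counts. The 3 nearest genes of the 2 Delta-like ligands were not shared. Nearest to DLL1 were APOLD1 (0.041), TFPI2 (0.046) and SOCS3 (0.055). Nearest to DLL4 were HIVEP3 (0.051), GBP3 (0.062) and GBP2 (0.079), and HIVEP3 differed by 2.46 in LPS/Control. Nearest to HES4 were NPIPB11 (0.054), KRT17 (0.055) and LENG9 (0.064), all highest in mut PDZ+LPS. With 4 libraries these are descriptions of a shared course and nothing more.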

How the data were processed

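RNA from 4 BEAS-2B cultures was made into poly(A)-selected directional libraries, 1 per condition. Reads were trimmed by the authors and mapped with TopHat, to hg19 per the submitters' processing notes, and whole-number counts per gene symbol were deposited without normalization. The counting tool, annotation and strand setting are not given in the sources used here. Geometric size factors scaled the counts (DESeq2 1.42.0, R 4.3.3), and 1 normalized count was added before log2. Calls needed 2-fold and 16 normalized counts. Intervals were Clopper-Pearson for ratios and exact Poisson for levels, at 95%. They leave out error other than counting, and reads that carry no molecular identifier may be copies of 1 molecule. Lengths came from the longest coding transcript of GENCODE 29, by symbol, and promoters from RefSeq (GRCh38.p14). No coordinate of the hg19 alignment was used. The correction removed a lowess trend (span 0.3, 3 cycles) over length and GC content. The members and lists were chosen with earlier results of these data known. Named were all members, every listed gene called between Control and LPS, between either peptide and LPS, or between the peptides, the 2 genes of each list with the highest mean, and the 3 genes most like each called member. The alternatives were scaling by upper quartile, total count or TMM (edgeR 4.0.16), a pseudocount of 5, and other expression rules and fold thresholds. The steps were tested on simulated data. Python 3.11.15, pandas 2.3.3, scipy 1.17.1 and statsmodels 0.14.6 were used.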

Additional observations from a re-analysis of the deposited data

How the results depend on the processing

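The number of members called stayed within 1.5 times its value in all 6 comparisons under TMM scaling, a pseudocount of 5, no expression rule, and, chosen after seeing the data, a call only where the whole counting interval lay on one side of no difference. The genes called could still differ. In LPS/Control, a pseudocount of 5 ended the call of DLL1, and with no expression rule HEY1 was also called, as lower. A 1.5-fold threshold called 5 members with the mutant peptide against Control, 4 against LPS and 5 against the WT peptide. A 3-fold threshold called 1 in each comparison with Control and 0 between the mutant peptide and LPS or the WT peptide. Total-count scaling, which moves the median of all genes to -0.13 in LPS/Control, called 1 there, 1 in WT PDZ+LPS/Control and 0 between the mutant peptide and LPS. Upper-quartile scaling and the length and GC correction each called 1 in WT PDZ+LPS/Control and 0 between the mutant peptide and LPS or the WT peptide. An expression rule of 6 on the log2 scale called 1 in WT PDZ+LPS/Control. The cause of these differences in count was not tested. Of the 60 log2 fold changes of members, 4 had another sign under the correction, 2 under total-count and 2 under upper-quartile scaling, and 0 under TMM scaling. Summing NOTCH2 with NOTCH2NL, chosen after seeing the data, changed no sign in 6 comparisons, but moved NOTCH2 with the mutant peptide from -1.02 to -0.86 against LPS and from -1.05 to -0.90 against the WT peptide, which ends both calls. No paired analysis was possible because each condition had 1 library and the labels give no replicate numbers. Leaving out a library would remove its condition. DLL4, HEY1, NOTCH3 and DLL1, with at most 94 reads in a library, are the members that depth limits most.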
